A study of Homo sapiens with 8 samples.

Results

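A set of 267 protein-coding genes was close to silent in cultured human skin fibroblasts and was detected after 6 h with celastrol. The genes were chosen by their values: among protein-coding genes outside chromosome Y, the mean over the 4 libraries without celastrol had to be under 5 normalized reads and the mean over the 4 libraries with celastrol at least 50. They are 267 of 24598 genes analysed, of 15280 coding genes outside chromosome Y, and of 1656 coding genes whose mean without celastrol was under 5. Each gene analysed reached 11 reads in some library, so silent genes that stayed lower in every library are not among the 1656. The reverse rule, at least 50 without celastrol and under 5 with it, selected 0 coding genes. The same thresholds selected 250 of 5223 long non-coding RNA genes and 41 of 2430 processed pseudogenes.

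The cells were CCD-1077Sk, a human skin fibroblast line grown to about 70% confluence. There were 4 groups of 2 libraries. Cells received TGFB1 with celastrol at 500 nM, celastrol at 500 nM with bovine serum albumin and citric acid, TGFB1 with DMSO, or bovine serum albumin and citric acid with DMSO, the control. The study asks how celastrol alters the gene expression driven by TGFB1, a cytokine that activates fibroblasts to make matrix. The sources used here name no TGFB1 dose. Nothing in the labels tells whether replicate libraries are separate cultures; the p-values then cover only the variation among the 8 libraries, which could be technical. One normalized read is an estimated read divided by the size factor of its library; the 8 libraries held 20716717 to 42518385 estimated reads, and 1 read was worth 0.600 to 1.41 normalized reads. All 14 fibroblast identity genes on a list (such as COL1A1, PDGFRB and VIM) were above 50 normalized reads without celastrol.

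As background, celastrol is a plant triterpenoid known to induce the heat shock response, in which the transcription factor HSF1 raises the genes of protein-folding chaperones. Most coding genes of one tissue, such as those of the muscle sarcomere, are kept silent in fibroblasts by closed chromatin and by the absence of the factors that drive them. Stress such as heat is known to let RNA polymerase run past the ends of active genes, and such read-through transcripts can cover genes that lie downstream on the same strand. The table analysed here gives values per gene and none between genes, so whether read-through contributed was not tested. All 22 heat shock inducible genes on a list, among them HSPA1A, DNAJB1 and BAG3, were higher with celastrol than in the control (limma, adjusted p under 0.05), and none of them is in the set, because each had a mean of 5 or more without celastrol.

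Together the 267 genes summed to between 30061 and 32160 normalized reads in the 4 libraries with celastrol, and to between 346.95 and 493.21 in the 4 without it. That was 0.112% to 0.119% of all normalized reads with celastrol, against 0.00115% to 0.00193% without. The level of a gene with celastrol, as a mean over 4 libraries, had a median of 84.1 normalized reads, quartiles of 62.0 and 129, and a highest value of 759.5. Most were low: 167 genes lay between 50 and 100, 100 genes reached 100, 36 reached 200 and 2 reached 500.

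Without celastrol, between 93 and 140 of the 267 genes had no read in a given library, and 44 had none in any of the 4. With no read seen, up to 3 reads remain possible, or 1.80 to 4.24 normalized reads in the 4 libraries without celastrol; this limit and those below cover counting error only. In 149 genes all 4 of these libraries held 3 reads or fewer, so absence cannot be told from a very low level. The highest single value without celastrol was 12.5 normalized reads, and the lowest single value with celastrol was 29.3. The rule fixes this separation, and all 267 genes had every celastrol library above every other library. All 267 were also past the threshold as higher in celastrol against control and in TGFB1 with celastrol against TGFB1, where 33.8% and 37.5% of the 22866 genes tested were called higher; the rule used both contrasts, so these counts carry no test. Over all genes the split of 7737 higher and 4868 lower against control became 6751 and 7470 with median centring, and that of 8564 and 5933 against TGFB1 became 6956 and 9094, or 9882 and 4190 at a common total. The log2 differences of the members ran from 2.77 to 8.98 (median 5.52) against control and from 2.99 to 8.95 (median 5.81) against TGFB1, beside medians over all genes of 0.083 and 0.122.

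At the threshold of 50, the lowest members were BTBD16 at 50.1, RGS22 at 50.2, TSLP at 50.6, CDHR1 at 50.7 and CYP4F11 at 50.9 normalized reads with celastrol. The nearest coding genes below it were VIL1 at 49.7, TXLNB at 49.8, ANGPT2 at 49.9, and ADRA2B and SLC5A5, each at 49.9. At the threshold of 5 without celastrol, DKK2 (4.996), SLC10A6 (4.96) and DACH1 (4.90) lay inside, and GCOM1 (5.003), NHLH1 (5.02) and AMN (5.07) lay outside. The boundary therefore cuts through a continuum of genes.

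**Figure D1:**
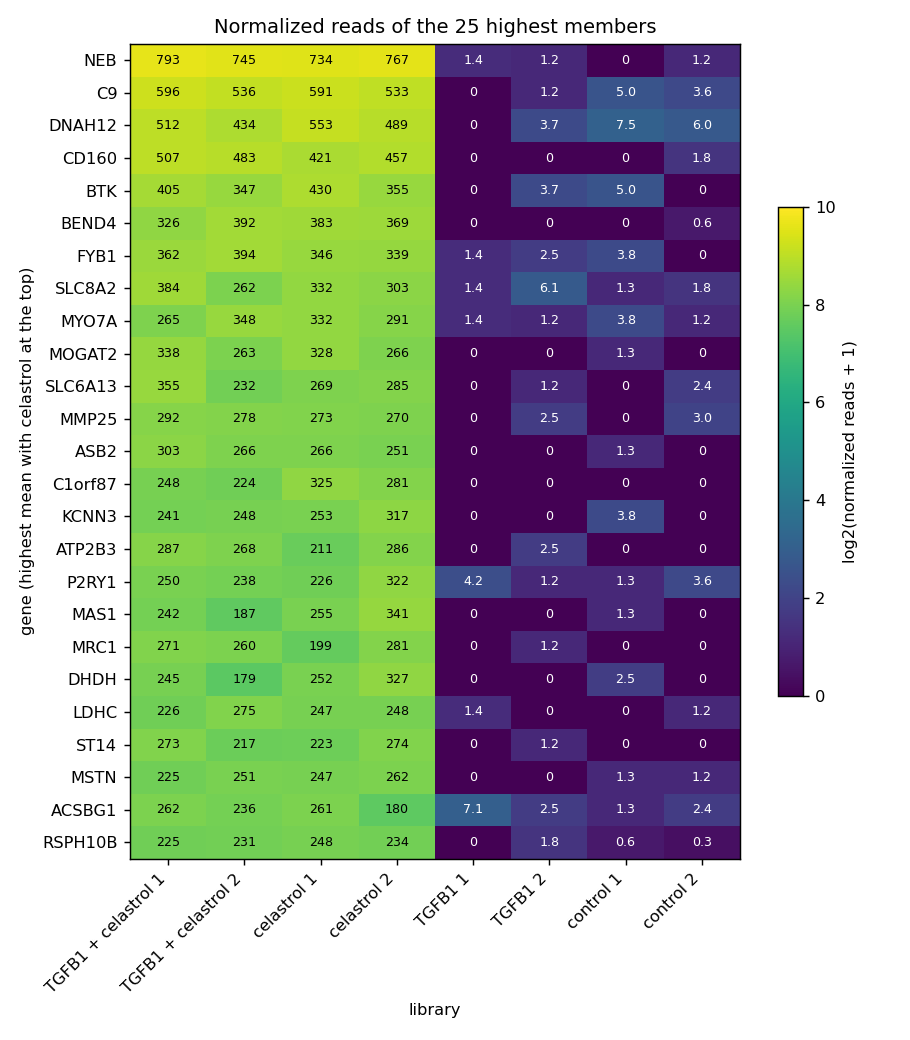
Normalized reads of the 25 members with the highest mean with celastrol, 1 row a gene and 1 column a library; color gives log2(normalized reads + 1) and the printed number gives the value. In all 25 genes the 4 columns with celastrol lie at 179 or above and the 4 without lie at 7.50 or below.

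The highest member was NEB, the gene of nebulin, a giant protein along the thin filament of skeletal muscle. NEB (chromosome 2, 151485336 to 151734488, hg38, minus strand) had 793 and 745 normalized reads with TGFB1 and celastrol and 734 and 767 with celastrol, against 1.41 and 1.23 with TGFB1 and 0 and 1.2 in the control. The groups with and without celastrol do not overlap, and the 4 celastrol libraries differ by a factor of 1.08 from lowest to highest. NEB has 30.6 kb of exons, the longest exonic sequence of the set, and per exonic kb its level with celastrol was 24.9 normalized reads. Exons of RIF1, on the other strand, overlap NEB exons. RIF1 had 6481 to 7528 normalized reads with celastrol and 6558 to 9668 without. Whether reads from RIF1 were counted for NEB was not tested.

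CD160, a receptor of natural killer and T cells (chromosome 1, 145719471 to 145739289, plus strand), had 507 and 483 normalized reads with TGFB1 and celastrol and 421 and 457 with celastrol. It had 0 and 0 with TGFB1 and 0 and 1.80 in the control. Exons of RNF115 on the other strand overlap it, and RNF115 had 1912 to 2156 normalized reads with celastrol and 2282 to 2644 without. MSTN, which encodes myostatin, a secreted inhibitor of muscle growth (chromosome 2, 190055700 to 190062730, minus strand), had 225 and 251 with TGFB1 and celastrol, 247 and 262 with celastrol, 0 and 0 with TGFB1, and 1.25 and 1.2 in the control. No annotated exon of another gene overlaps MSTN, and no expressed coding gene lies upstream of it on its strand within 50 kb.

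The promoters of these genes are shown because the motif counts below refer to such windows. Each run is the RefSeq window (GRCh38.p14) of 300 bases, 250 before to 50 after the gene's start, read 5′ to 3′ on the gene's strand. In the first 3 runs capitals mark every match to the motifs searched below, and in C12orf50 they mark the heat shock element alone. NEB (chr2:151734427-151734726, minus strand) and CD160 (chr1:145719249-145719548, plus strand) hold none, and MSTN (chr2:190062680-190062979, minus strand) holds an AP-1 match that starts 171 bases before its start and TATAAA at 30 and at 6 bases before it. C12orf50 (chr12:88029352-88029651, minus strand) is added as the only 1 of the 199 members with a matched window to hold the heat shock element searched below. The element starts 10 bases before the gene's start. The other members had no window to search.
NEB: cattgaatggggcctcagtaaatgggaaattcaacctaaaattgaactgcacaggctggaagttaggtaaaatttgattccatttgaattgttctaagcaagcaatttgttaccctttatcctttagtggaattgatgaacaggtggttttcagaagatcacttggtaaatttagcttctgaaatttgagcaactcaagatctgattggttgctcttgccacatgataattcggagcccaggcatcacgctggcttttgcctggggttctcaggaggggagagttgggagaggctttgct
CD160: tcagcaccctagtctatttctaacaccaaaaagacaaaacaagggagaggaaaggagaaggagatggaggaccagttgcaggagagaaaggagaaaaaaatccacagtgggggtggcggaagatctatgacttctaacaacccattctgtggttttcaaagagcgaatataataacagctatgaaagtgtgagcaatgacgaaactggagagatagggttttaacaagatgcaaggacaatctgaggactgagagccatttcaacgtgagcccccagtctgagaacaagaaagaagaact
MSTN: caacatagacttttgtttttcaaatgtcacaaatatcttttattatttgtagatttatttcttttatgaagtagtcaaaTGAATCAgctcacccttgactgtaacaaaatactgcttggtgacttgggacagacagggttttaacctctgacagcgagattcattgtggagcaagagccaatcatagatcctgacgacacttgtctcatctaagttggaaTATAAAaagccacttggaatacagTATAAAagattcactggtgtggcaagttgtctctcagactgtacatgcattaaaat
C12orf50: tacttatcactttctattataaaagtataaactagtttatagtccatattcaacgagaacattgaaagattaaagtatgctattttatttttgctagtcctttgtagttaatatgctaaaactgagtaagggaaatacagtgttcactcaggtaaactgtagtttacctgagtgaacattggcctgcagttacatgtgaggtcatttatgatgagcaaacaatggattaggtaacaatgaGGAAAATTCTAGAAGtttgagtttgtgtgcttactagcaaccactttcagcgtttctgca

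RefSeq windows were matched by symbol for 199 of the 267 members. The heat shock element was searched as 3 units of NGAAN, side by side and in alternating orientation, on both strands. It was found in 1 of 199 member windows (0.503%), against 0.536% of 933 windows of other silent coding genes and 0.482% of all 27195 windows. The AP-1 site TGANTCA was found in 7.54% of member windows and 7.73% of all windows, and the cAMP response element TGACGTCA, which shares no match with TGANTCA, in 1.51% and 1.98%. TATAAA was found in 12.1% of member windows and 12% of all windows. Coding genes with at least 50 normalized reads without celastrol had 0.272%, 4.23%, 3.39% and 5.45% for the 4 motifs in this order. The median content of G and C was 58.3% in member windows, 58.3% in all windows and 65.3% in windows of the expressed genes. The other silent coding genes had 8.47% for the AP-1 site, 1.29% for the cAMP response element, 13.2% for TATAAA and a median G and C content of 59.7%, so the members lay near them in these measures too. Each gene analysed reached 11 reads in some library, so other silent coding genes could be included through the libraries with celastrol. They are therefore no unchanged reference, as given below for TTN. A match is only a description of letters, and a missing match says only that these letters are not in this window.

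The 25 highest members come from many tissues, by textbook knowledge applied after the genes were known. Muscle is represented by 3 (NEB, ASB2 and MSTN). ASB2, a ubiquitin ligase subunit of muscle and blood cells, had 303 and 266 normalized reads with TGFB1 and celastrol and 266 and 251 with celastrol, against 0 and 0 with TGFB1 and 1.25 and 0 in the control.

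Immune cells are represented by 5 (CD160, BTK, FYB1, MMP25 and MRC1). BTK, the tyrosine kinase of B cell receptor signalling, had 405 and 347 with TGFB1 and celastrol, 430 and 355 with celastrol, 0 and 3.69 with TGFB1, and 5.003 and 0 in the control. FYB1, an adaptor of T cell receptor signalling, averaged 378 ± 22.8 with TGFB1 and celastrol and 343 ± 5.08 with celastrol (SD, n = 2 each). MRC1, the mannose receptor of macrophages, had 271 and 260 with TGFB1 and celastrol and 199 and 281 with celastrol, and at most 1.23 in any library without it.

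Nervous and sensory tissues are represented by 5: SLC8A2, a sodium-calcium exchanger of brain; ATP2B3, a calcium pump of neurons; KCNN3, a calcium-activated potassium channel; ACSBG1, an acyl-CoA synthetase of brain; and MYO7A, a myosin of inner ear hair cells. Their means over the 4 celastrol libraries lay between 235 and 320 normalized reads. Liver, gut or kidney are represented by 3: C9, the terminal component of complement made in liver; MOGAT2, an enzyme of fat absorption in the intestine; and SLC6A13, a transporter of GABA in liver and kidney. Motile cilia are represented by DNAH12 and RSPH10B, testis by LDHC, epithelia by ST14, and platelets by P2RY1. BEND4, C1orf87, MAS1 and DHDH were not assigned, although C1orf87 is on the motile cilium list used below. RSPH10B has a near-identical copy, RSPH10B2, which is also a member, so reads of both are uncertain.

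C9 had 596 and 536 normalized reads with TGFB1 and celastrol and 591 and 533 with celastrol, against 0 and 1.23 with TGFB1 and 5.003 and 3.60 in the control. C1orf87 had no read in the 4 libraries without celastrol and 248, 224, 325 and 281 normalized reads in those with it, the first pair with TGFB1. Against 3 reads per library it was at least 80.1-fold higher. Over the 44 members with no read in any of the 4 libraries, this bound ran from 15.1-fold to 80.1-fold, with a median of 24.2-fold. Among them were ACTN2, the sarcomeric alpha-actinin, at least 39.4-fold higher, and LCK, a T cell kinase, at least 29.4-fold higher.

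Gene lists for 9 other tissues or cell types hold 18 of the 267 members, and the others are in no list. The lists were chosen with earlier results of these data known, and several hold genes of the 25 highest. The number of members in a list is therefore a description with no test. For scale, 267 of the 1656 coding genes under 5 without celastrol are members. No gene under 11 reads in every library is among the 1656, and 4628 annotated coding genes were not analysed. This share therefore does not describe all silent coding genes. The striated muscle list has 62 genes, of which 38 were analysed here and 9 are members (NEB, ACTN2, TNNT2, TNNI1, XIRP2, CKM, RYR1, ASB2 and MSTN). RYR1, the calcium release channel of skeletal muscle, had a mean of 82.6 normalized reads with celastrol and 1.103 without. CKM, the muscle creatine kinase, had 79.2 with and 1.33 without. Another 11 muscle genes were also under 5 without celastrol but did not reach 50 with it, such as TTN, the gene of titin, at 26.1, and ACTA1, the skeletal actin, at 20.9. Of 35 muscle genes tested in celastrol against control, 25 were higher and 1 (KLHL41) was lower. The 9 members among them are higher by the rule, and other silent genes such as TTN and ACTA1 passed the filter on low values through the libraries with celastrol, so selection fixes much of this count and nothing is read from it. XIRP1, a muscle protein of cell junctions, had 1227 normalized reads with celastrol and is no member because it had 9.98 without. DES, which encodes desmin, with a log2 difference of 0.53, and HSPB7, with -0.01, did not pass the threshold in celastrol against control. In TGFB1 with celastrol against TGFB1, 25 muscle genes were higher, with the same limit from selection, and 2 were lower. The lower genes were HSPB7 (-0.81, limma adjusted p = 0.00143) and MYOZ1 (-2.12, limma adjusted p = 0.00387). KLHL41 (-0.18) and DES (-0.47) did not pass the threshold there. The summed level of the list was 5232 to 5584 with celastrol and 1335 to 1900 without. The 9 members, made higher by the rule, are part of these sums, so nothing is read from them. MYOD1, MYF5, MYF6, MYOG and PAX7, the transcription factors that define muscle cells, were not among the genes analysed here.

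The lymphocyte and myeloid list has 30 genes, of which 13 were analysed and 3 are members: CD160, KLRC1, a natural killer receptor with a close paralog in KLRC2, at 73.0, and LCK at 99.1 normalized reads with celastrol. PTPRC, the pan-leukocyte CD45, had 28.3 normalized reads with celastrol and 9.74 without; it did not pass the threshold in celastrol against control (log2 difference 1.22, limma adjusted p = 0.0878) and passed it in TGFB1 with celastrol against TGFB1 (1.96, adjusted p = 0.0119). The summed level was 869 to 1041 with celastrol and 45.5 to 77.5 without. The 3 members are part of these sums and the rule made them higher, CD160 alone with a mean of 467 against 0.450. Nothing is read from the sums. CD3D, CD3E, CD3G, CD2, CD4, CD8A, NKG7 and PRF1, which define lymphocytes, were not among the genes analysed. Whether cells of another type contributed to the members was not tested.

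The other lists had few members. Of 23 liver genes, 10 were analysed and 2 are members, C9 and HP (54.3 with celastrol, 0 without in all 4 libraries); ALB, the gene of serum albumin, had 48.6 with and 0.2999 without. Of 24 neuron genes, 14 were analysed and 1 (KCNN3) is a member. Of 10 intestinal genes, 6 were analysed and 1 (MOGAT2) is a member. PECAM1 (60.7 with celastrol) is the one member among 5 analysed endothelial genes and C1orf87 the one among 4 analysed motile cilium genes. FOXJ1, the transcription factor of motile cilia, had 48.9 with celastrol and none without. Of the 8 testis and the 3 keratinocyte genes analysed, 0 were members.

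**Figure D2:**
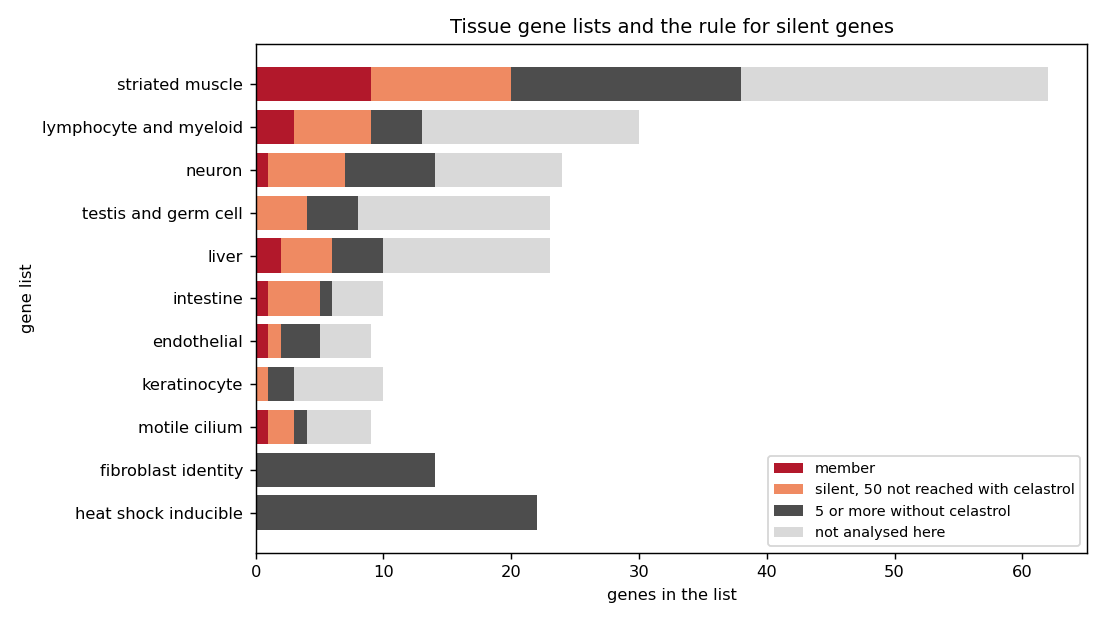
Number of genes (x axis) in each list (y axis), split by what the rule made of them: members, silent genes that stayed under 50 normalized reads with celastrol, genes at 5 or more without celastrol, and listed genes not analysed here. Members occur in 7 of the 11 lists, with 9 in the muscle list, and none of the 22 heat shock genes was silent.

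The median lengths of the members lay between those of other silent genes and of all coding genes. The median span of a member was 32.7 kb (from CLDN24 at 0.663 kb to LRRC4C at 1346 kb), against 25.6 kb for the 1389 other coding genes under 5 without celastrol and 33.2 kb for all coding genes analysed. The span quartiles of the members, 14.9 and 84.8 kb, lay above those of all coding genes, 13.1 and 81.3 kb. Exonic length, from GENCODE release 29 for 264 of the 267, had a median of 4.40 kb in members, 3.49 kb in the other silent genes and 4.96 kb in all coding genes. A long exonic sequence gives more reads at the same number of transcripts, so the threshold of 50 favours it. The other silent genes also had at least 11 reads in some library, which could be one with celastrol. Per exonic kb the level with celastrol had a median of 21.8 normalized reads in members, 4.16 in the other silent genes and 160.5 in coding genes with at least 50 normalized reads without celastrol. DHDH, a dehydrogenase with 1.08 kb of exons, had the highest level per exonic kb of the set, 232.

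Members lay on 23 chromosomes and made up 1.75% of the coding genes analysed. The share was highest on chromosome 12 (2.93%, 24 genes) and lowest on chromosome 20 (0.498%, 2 genes). In 9 places, 2 or 3 members followed each other on the same strand, 19 genes in all. The gene upstream was expressed in 7 of them.

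Expressed genes often lay upstream of members on the same strand. A coding gene with at least 50 normalized reads without celastrol, and so never itself a member, lay within 50 kb upstream on the same strand of 137 of the 267 members (51.3%). The share was 43.3% for the other silent coding genes, 39.1% for coding genes expressed without celastrol, and 18.0% for 4628 annotated coding genes that were not analysed here. On the other sides of the members the shares were lower: 27.7% upstream on the opposite strand, 31.8% downstream on the same strand and 35.2% downstream on the opposite strand. For the other silent genes those 3 shares were 28.9%, 32.1% and 35.8%, close to the members' values. At shorter distances upstream on the same strand the gap was smaller or turned round: 20.6% of members and 18.1% of other silent genes within 10 kb, 10.9% and 11.4% within 4 kb, and 6.37% and 8.06% within 2 kb. With the neighbour's level measured with celastrol, 154 members (57.7%) and 46.7% of the other silent genes had such a neighbour, and downstream on the same strand the shares were 38.6% and 33.8%. These shares describe the genes and were not tested. The other silent genes are not an unchanged set. Each gene analysed reached 11 reads in some library, which a gene under 5 without celastrol could do mainly through the libraries with celastrol. How many were included in this way was not counted, so this reference set is itself shaped by celastrol. TTN (26.1 normalized reads with, 0.816 without) and ALB (48.6 and 0.2999) were higher with celastrol without reaching 50.

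**Figure D3:**
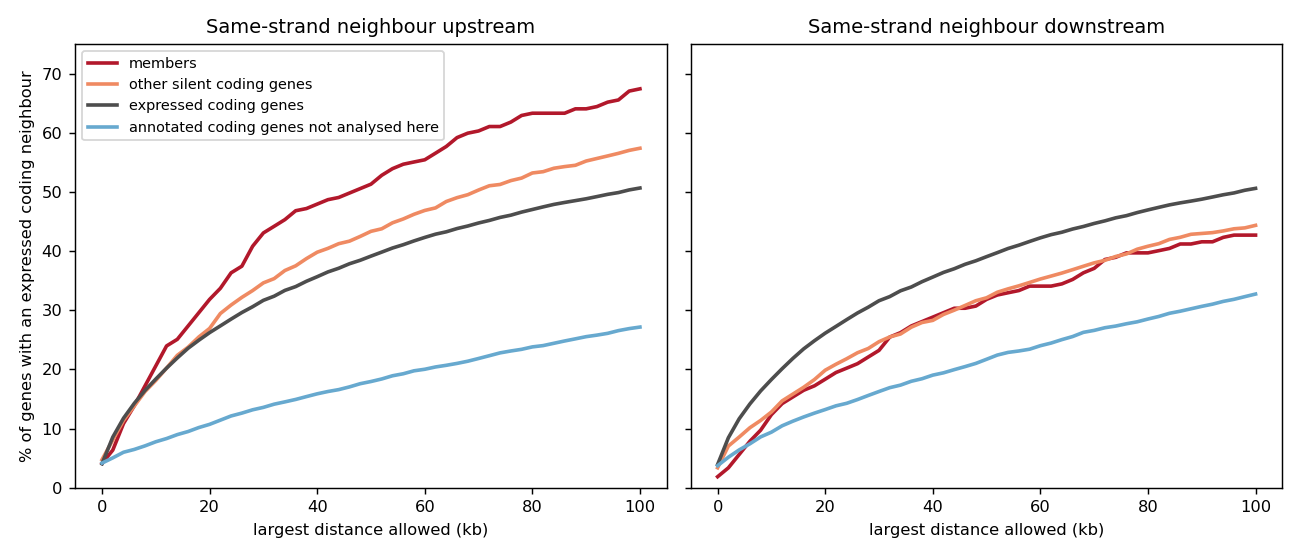
Share of genes (y axis, %) with an expressed coding gene on the same strand within the distance on the x axis (kb), upstream on the left and downstream on the right; expressed means at least 50 normalized reads without celastrol. At 50 kb upstream the members lie at 51.3% and the other silent genes at 43.3%, whereas downstream the members lie at 31.8% and the other silent genes at 32.1%.

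The 137 members had 135 different upstream neighbours, with the pair overlapping in 11 cases, at a median distance of 15 kb. The neighbours had a median of 1299 normalized reads without celastrol, beside 843 for all coding genes with at least 50. In celastrol against control 37.0% of the neighbours were called higher and 17.8% lower, beside 21.1% and 31.4% of the expressed coding genes and 33.8% and 21.3% of all genes tested. This balance depended on the scaling: 50 neighbours were higher and 24 lower, against 45 and 37 at a common total and 39 and 51 with median centring. In TGFB1 with celastrol against TGFB1 the shares were 40.0% and 35.6% of the neighbours, beside 22.9% and 40.1% of the expressed coding genes. Over all genes tested they were 37.5% and 25.9%. Across the 125 members with both values, the level per exonic kb with celastrol had a Spearman correlation of 0.31 with that of the neighbour and of -0.17 with the distance; the points share 4 libraries.

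Among the 25 highest members, 14 had such a neighbour. GLA, 2.48 kb upstream of BTK, was higher with celastrol (log2 difference against control 0.93, SE 0.09, limma adjusted p = 4.15e-05), and so was GPR89A, 48.8 kb upstream of CD160 (1.97, SE 0.07, limma adjusted p = 3.41e-07), whose reads may be shared with its near-identical copy GPR89B. APLP2, 15 kb upstream of ST14, differed by 0.01 (SE 0.05, adjusted p = 0.918). WDR61, upstream of ACSBG1, was lower (-0.72, SE 0.10, adjusted p = 0.000487).

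In 4 of the runs the levels were followed from gene to gene. DAB2, an endocytic adaptor on chromosome 5, had 15490 ± 928 normalized reads with celastrol and 12930 ± 632 without (SD, n = 4 each), a log2 difference of 0.28 in celastrol against control (limma adjusted p = 0.00953). C9 follows on its strand with 191 normalized reads per exonic kb with celastrol, and FYB1 after it with 40.7, against 0.833 and 0.215 without. The C9 gene model used here overlaps DAB2, whereas the RefSeq start of C9 (39364495) lies 7.18 kb past the end of DAB2. Some C9 reads could belong to DAB2, which was not tested. In the 4 libraries without celastrol DAB2 had 12100 to 13600 normalized reads and C9 had 0 to 5.003.

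LDHA, the lactate dehydrogenase of most tissues, had 21020 ± 813 normalized reads with celastrol and 26710 ± 2088 without (SD, n = 4 each), and was lower in celastrol against control (-0.27, limma adjusted p = 0.00573). LDHC, the testis enzyme, starts 3.89 kb past its end and had 119 normalized reads per exonic kb with celastrol and 0.312 without. LDHAL6A follows after another 3.76 kb with 49.8 with celastrol and none without. LDHC and LDHAL6A are paralogs of LDHA, so reads may be exchanged among them. KDM5A, a histone demethylase on chromosome 12, was higher in celastrol against control (0.34, limma adjusted p = 0.000993). It is followed by the transporter genes SLC6A13, 17.2 kb past its end, with 67.2 per exonic kb with celastrol, and SLC6A12 with 32.1. In these 3 runs the level per exonic kb was lower in the gene further from the expressed one.

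The fourth run differs. PHLDA3, a p53 target on chromosome 1, is followed 34.4 kb past its end by TNNI1, the slow skeletal troponin I, then LAD1, a basement membrane protein, and TNNT2, the cardiac troponin T. Their levels per exonic kb with celastrol were 12.2, 17.7 and 9.40, so the middle gene was the highest. PHLDA3 differed by -0.10 in celastrol against control (log2, SE 0.09, adjusted p = 0.387). The 4 runs were chosen after their values were seen. The other 5 runs were ACRBP and LPAR5, FUT3 and FUT6, NPHS1 and PRODH2, ANKRD45 and SLC9C2, and CCL24 and CCL26. FUT3 and FUT6 are close paralogs whose reads may be exchanged.

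**Figure D4:**
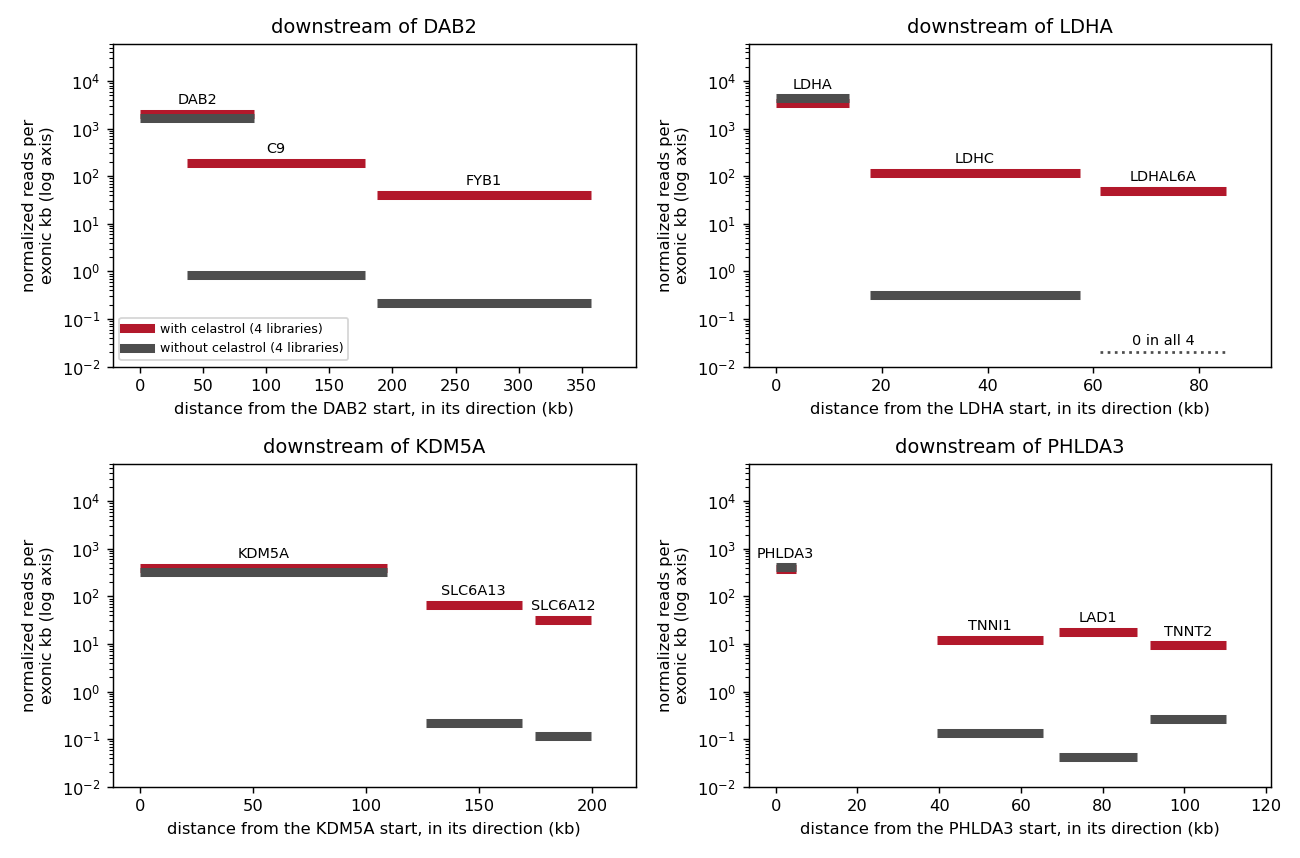
Level per exonic kb (y axis, log, normalized reads, mean of 4 libraries) of the genes in 4 runs, drawn over their position as distance in kb from the start of the expressed first gene in its own direction (x axis), with celastrol in red and without in gray. The 2 colors lie close together for the first gene, and the rule made every later gene higher in red, TNNT2 for example at 9.40 against 0.264; LDHAL6A had no read without celastrol and is drawn dotted.

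Not all members have such a neighbour. Exons of another annotated gene overlapped those of 94 members, on the opposite strand in 72 and on the same strand in 34, and no source used here says whether counting used the strand. Neither an exon overlap nor an expressed upstream neighbour on the same strand was found for 93 members, among them MSTN, BEND4, MOGAT2, KCNN3, P2RY1, MAS1 and MRC1. Expressed neighbours downstream or on the opposite strand were not part of this count, so some of the 93 may have one.

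No difference with TGFB1 was detected for any member in the presence of celastrol; the rule did not use this comparison. Of the 267 members, 0 passed the threshold in TGFB1 with celastrol against celastrol (limma on log2(normalized reads + 1), 8 libraries, Benjamini-Hochberg adjusted p under 0.05), where 0.00875% of the 22866 genes tested were called. The 2 called genes were not members. No member had an unadjusted p under 0.05, beside 868 of all genes (3.80%), and the smallest member p was 0.122 (SLC10A6). The spread in this fit was taken over all 8 libraries, including those without celastrol, where members held a few reads. These p-values therefore do not tell whether TGFB1 changed members less than other genes. Fitted on the 4 celastrol libraries alone, 0 members were called and 17 of 267 had an unadjusted p under 0.05, beside 1061 of all 22866 genes.

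The log2 differences of the members ran from -0.64 to 1.00 with a median of 0.01 and quartiles of -0.14 and 0.17, beside -0.11 and 0.12 over all genes. The median standard error, from the spread over all 8 libraries, was 0.44, which limits what could be seen in a single member. NEB differed by 0.04 (SE 0.37), CD160 by 0.17 (SE 0.46) and MSTN by -0.10 (SE 0.29). The highest difference was that of AC005192.1, with 94.8 and 162 normalized reads with TGFB1 and celastrol and 43.7 and 85.7 with celastrol. Both libraries with TGFB1 lay above both without it in 59 members (22.1%; 16.7% of all genes) and below in 48 (18.0%; 17.1%).

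**Figure D5:**
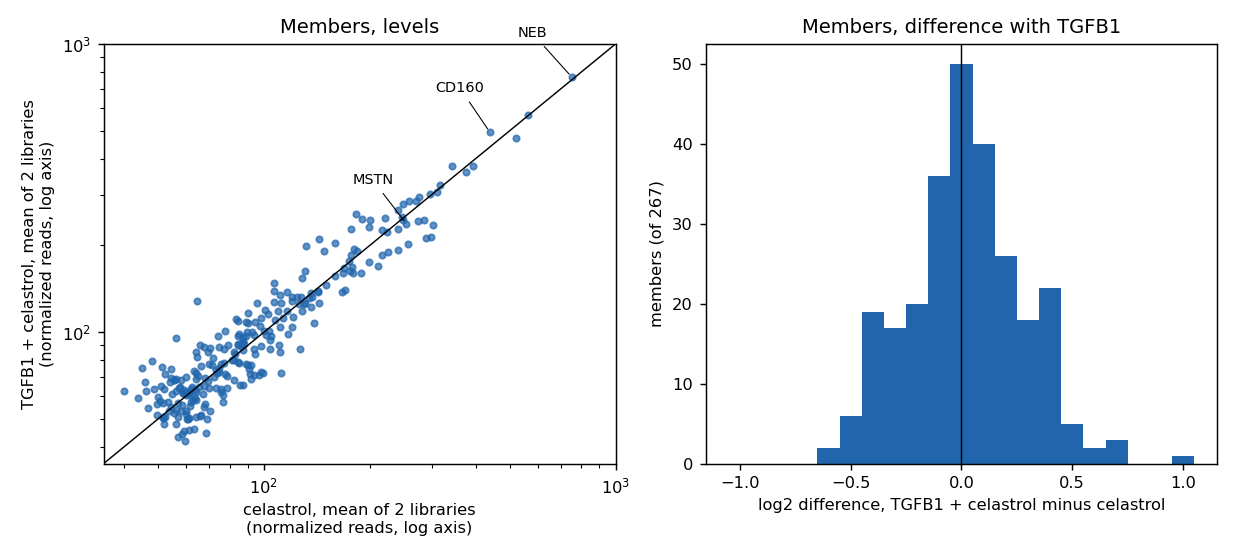
Left, mean normalized reads of the 267 members with TGFB1 and celastrol (y axis, log) against celastrol (x axis, log), 2 libraries each, with the line of equality. Right, the number of members (y axis) by log2 difference, TGFB1 with celastrol minus celastrol; the values run from -0.64 to 1.00 around a median of 0.01.

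Without celastrol, TGFB1 was compared with the control at values of a few reads. In TGFB1 against control 29 members were called, 8 higher and 21 lower (10.9%), where 23.5% of all tested genes were called, 12.8% higher and 10.6% lower. The split over all genes, 2937 higher and 2427 lower, depended on the scaling: it was 1421 and 5403 at a common total and 4778 and 1775 with median centring, where the members had 8 and 29, and 9 and 21. Over those 29 genes the largest number of reads in any of the 4 libraries was 18, and the median of the largest number was 5. C9 (log2 difference -1.82) and MSTN (-1.15) were lower with TGFB1, adjusted p = 0.0101 and 0.0236, which for MSTN rests on 0 and 0 normalized reads against 1.25 and 1.2. With only the 4 compared libraries 13 members and 1684 of all genes were called, and with a pseudocount of 5 in place of 1, 9 members. Without control replicate 1 or 2 the count over all genes, 5364, became 3314 or 3252.

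The interaction asks whether the celastrol difference depended on TGFB1. It was called for 7 members, 6 higher and 1 lower (2.62%), where 11.3% of all tested genes were called, 4.36% higher and 6.89% lower. Over all genes this split, 997 higher and 1576 lower, became 2473 and 802 at a common total and 784 and 2748 with median centring, where the members had 9 and 1, and 6 and 2. CLDN24, WNT11, SERINC4, VHLL, TLR9 and LIPH had a larger log2 difference for celastrol in the presence of TGFB1, and LRRC4C a smaller one. WNT11, a secreted Wnt ligand, had 126 and 61 reads with TGFB1 and celastrol and 120 and 70 with celastrol, against 0 and 0 with TGFB1 and 5 and 11 in the control. Its interaction was 2.69 (SE 0.46, limma adjusted p = 0.00704), and its difference between TGFB1 with celastrol and celastrol was -0.20. TLR9, a receptor for DNA in immune cells, had 156 and 84 reads with TGFB1 and celastrol, 137 and 78 with celastrol, 0 and 0 with TGFB1, and 3 and 4 in the control. In the libraries without celastrol no gene of the 7 had more than 13 reads, and in TGFB1 with celastrol against celastrol none of the 7 was called. All 7 were lost with a pseudocount of 5. The count without 1 library was 2 or 1 (celastrol replicate 1 or 2), 1 or 2 (TGFB1 with celastrol replicate 1 or 2), 12 (control replicate 2), and 18 or 16 (TGFB1 replicate 1 or 2). Without celastrol replicate 1 or 2, the count over all genes, 2573, was 1627 or 1333, without TGFB1 with celastrol replicate 1 or 2 it was 1414 or 1218, and without control replicate 1 or 2 it was 1639 or 1498.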

How the data were processed

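RNA of 8 fibroblast libraries, 2 in each of 4 groups, was analysed from 1 table. The submitters' processing notes name build hg38 and the tools DESeq2, STAR 2.7.3a and Partek 10.0.22, without saying what each did; no source used here states the annotation or the use of strand. The deposited values are a signal per gene: estimated reads divided by a size factor, read from the values themselves, where 67.7% to 75.4% of values in a library are whole reads within 0.02 reads. No count model was fitted. Each gene analysed reached 11 reads in some library.

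Values were taken as log2(value + 1), which understates the change of low genes. The 22866 genes with at least 10 in at least 2 libraries were fitted with limma 3.58.1 (R 4.3.3), 1 mean per group, a variance trend and 4 residual degrees of freedom, adjusted by Benjamini-Hochberg at 0.05. All 267 members passed that filter, through the libraries with celastrol. Named are the 25 highest members, NEB, CD160 and MSTN, those called for TGFB1, list members, genes at the thresholds, and neighbours. Genes singled out beyond this are said to be so or illustrate a list. The members and lists were chosen with earlier results of these data known. Exons came from GENCODE release 29 and promoters from RefSeq. The fit was also run on simulated counts with the same spread set for all genes. That run does not tell how well a change in the members would be detected. Python 3.11.15 was used.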

Additional observations from a re-analysis of the deposited data

Results flagged for a closer look

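In 7 members the log2 difference for celastrol differed with and without TGFB1 by the interaction term of the limma fit. The interaction was 2.69 for WNT11, 2.68 for CLDN24, 2.13 for SERINC4, 2.09 for VHLL, 2.02 for TLR9 and 1.88 for LIPH, and -2.29 for LRRC4C. The adjusted p-values ran from 0.00704 (WNT11) to 0.0313 (VHLL). CLDN24 had 148 ± 10.9 normalized reads with TGFB1 and celastrol and 107 ± 13.4 with celastrol, against 0 ± 0 with TGFB1 and 3.85 ± 2.05 in the control (SD, n = 2 each). LRRC4C had 57.4 ± 13.8 with TGFB1 and celastrol and 76.7 ± 7.95 with celastrol, against 2.64 ± 0.259 with TGFB1 and 0 ± 0 in the control (SD, n = 2 each). Exons of other genes overlap those of SERINC4, TLR9 and WNT11. LRRC4C had 2 and 2 reads with TGFB1 and 0 and 0 in the control.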

How the results depend on the processing

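In every alternative run, 0 members were called in TGFB1 with celastrol against celastrol. Over all genes the 2 calls of that comparison became 0 with a pseudocount of 0.5, with no filter on low values, with at least 10 in at least 4 libraries, with median centring, and without any 1 library (lowest 0, highest 0). They became 1 with a pseudocount of 5, with only the 4 compared libraries, or without a variance trend. The 7 members called in the interaction became 13 with a pseudocount of 0.5, 0 with one of 5 and 11 without a variance trend, and 1 to 18 without 1 library. The 2573 interaction calls over all genes became 1245 without a variance trend and 1218 to 2722 without 1 library. The 29 members called in TGFB1 against control became 9 with a pseudocount of 5, 13 with only the 4 compared libraries, and 25 to 40 without 1 library; the 5364 calls over all genes became 1684 with those 4 libraries and 3252 to 4763 without 1 library. The cause was not tested in these cases. The other total counts of calls stayed within 1.5 times, but the split into higher and lower calls moved with the scaling, as given with each comparison.

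The number of members was 176 with a mean under 2 without celastrol, 584 with at least 25 and 100 with at least 100 with celastrol, 152 with every library on its side of both thresholds, and 264 to 282 without 1 library. With neighbours of at least 50 normalized reads with celastrol, 154 members had one upstream within 50 kb and 72 within 10 kb; with the level taken without celastrol, 137 and 55. Scaling to a common total moved the median interaction over all genes by 0.236 and median centring by -0.117 on the log2 scale. None of the 7 members called in the interaction reversed its direction in any alternative. Over all genes, directions were not compared gene by gene. Alternatives for TGFB1 against control, for the celastrol contrasts, for the interaction over all genes and for neighbours without celastrol were chosen after seeing the data.

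Same-numbered libraries of different groups deviated together weakly, with correlations of 0.0499 to 0.0815, and 1 label gives another number for celastrol replicate 2, so the numbers do not establish pairs. With the replicate block, 0 members and 1 of all genes were called in TGFB1 with celastrol against celastrol, 8 members and 3665 genes in the interaction, and 35 members in TGFB1 against control.

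With 2 libraries a group, a difference in a single member can exceed its standard error and still not be called. The largest member difference in TGFB1 with celastrol against celastrol, 1.00 on the log2 scale, was not called. Values without celastrol rest on a few reads.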
